A study of Mus musculus with 23 samples.

Results

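The choroid plexus genes described here are 10 rows of a count table of 55335 genes from mouse hippocampus, taken by the gene symbols Ttr, Folr1, Kl, Kcnj13, Clic6, Enpp2, Aqp1, Otx2, Slc4a5 and Igf2 with no threshold on a measured value, though earlier results of these data were known when the symbols were chosen. All 10 symbols were found, each in 1 row, and their counts were followed in 23 libraries of whole hippocampus as a trace of tissue that lies next to it. The libraries fall into 6 groups. WT-8M (n = 4) and 3xTg-8M (n = 4) are unoperated mice of 8 months. WT-D (n = 4) and 3xTg-D (n = 4) are mice of 10 months that had received vehicle (0.8% DMSO) from an osmotic pump into the lateral ventricle for 28 days, and WT-S (n = 3) and 3xTg-S (n = 4) had received 80 µM of the stearoyl-CoA desaturase inhibitor SCDi (ab142089) in the same vehicle. The WT mice are C57BL/6J x 129S1. The 3xTg mice, a model of Alzheimer's disease, carry human APPSwe and tauP301L transgenes under the neuronal Thy1.2 regulatory element, and per the study's methods all mice were female. All 10-month mice had a cannula in the ventricle, whichever group they belonged to, and the 8-month mice had none, so age and surgery cannot be told apart and the ages were not compared, as the labels ask.

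The choroid plexus is a folded sheet of epithelium that hangs in the brain ventricles, including the lateral ventricles that border the hippocampus. Its cells secrete cerebrospinal fluid by moving ions and water, and they release carrier and signalling proteins into it. Transthyretin, the product of Ttr, is the carrier of thyroid hormone that this epithelium makes in very large amounts, and Ttr is widely read as its marker in brain RNA. Hippocampal neurons and glia express some of the other members as well, among them Kl and Enpp2.

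The libraries held between 12.8M and 36.7M gene counts, the 10-month ones no more than 17.6M, so 1 count is worth between 0.0273 and 0.0781 counts per 1M gene counts (CPM). The share of reads outside any gene was 24.7% to 30.9%, with the highest value in 3xTg-8M replicate 4. The 8 markers of hippocampal neurons, among them Prox1, Wfs1 and Neurod6, summed to between 1037 and 1342 CPM in the 23 libraries, beside the label of hippocampus. The title of each library carries an animal number of its own. Titles of the 8-month libraries have the letter L before HPP, and those of 10 months name no side. Whether the 10-month hippocampi came from the side of the cannula is not given in the sources used here.

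Upstream windows of members whose levels moved together are shown because the epithelium's transcription factor OTX2, itself a member, binds the bicoid-type motif TAATCC. Windows are the 250 bases before a RefSeq transcript start on GRCm38.p6, read 5′ to 3′ on the strand of the gene, and capitals mark TAATCC or its reverse complement GGATTA. Kcnj13 and Slc4a5 stand for the epithelial ion transporters, Aqp1 for the water channel, and of the 4 Otx2 windows the one with a match is shown. Abca4 and Mfrp are not members and are shown for their match, and of the 10 genes most like the members in level, 8 had windows, 9 in all, of which 2 held the motif and 7 did not.
Kcnj13, chr1:87394730-87394979, minus strand: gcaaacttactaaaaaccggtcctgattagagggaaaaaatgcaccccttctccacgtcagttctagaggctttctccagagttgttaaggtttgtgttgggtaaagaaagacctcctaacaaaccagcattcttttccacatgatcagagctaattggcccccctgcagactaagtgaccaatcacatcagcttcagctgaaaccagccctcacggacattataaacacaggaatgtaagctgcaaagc
Slc4a5, chr6:83237125-83237374, plus strand: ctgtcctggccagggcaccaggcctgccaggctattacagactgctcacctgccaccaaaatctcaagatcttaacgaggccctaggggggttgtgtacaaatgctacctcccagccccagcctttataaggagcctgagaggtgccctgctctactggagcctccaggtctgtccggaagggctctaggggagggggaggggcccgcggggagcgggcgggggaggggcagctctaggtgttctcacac
Aqp1, chr6:55336049-55336298, plus strand: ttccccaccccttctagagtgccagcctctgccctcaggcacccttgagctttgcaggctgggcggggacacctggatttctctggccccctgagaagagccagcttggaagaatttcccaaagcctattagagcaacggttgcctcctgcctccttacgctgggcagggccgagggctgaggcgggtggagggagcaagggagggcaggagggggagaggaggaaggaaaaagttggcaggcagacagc
Otx2, chr14:48665110-48665359, minus strand: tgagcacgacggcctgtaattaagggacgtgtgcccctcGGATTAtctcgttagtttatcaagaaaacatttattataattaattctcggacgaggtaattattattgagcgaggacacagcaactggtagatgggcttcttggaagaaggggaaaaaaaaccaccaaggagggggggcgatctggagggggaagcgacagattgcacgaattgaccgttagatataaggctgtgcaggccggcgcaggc
Abca4, chr3:122044210-122044459, plus strand: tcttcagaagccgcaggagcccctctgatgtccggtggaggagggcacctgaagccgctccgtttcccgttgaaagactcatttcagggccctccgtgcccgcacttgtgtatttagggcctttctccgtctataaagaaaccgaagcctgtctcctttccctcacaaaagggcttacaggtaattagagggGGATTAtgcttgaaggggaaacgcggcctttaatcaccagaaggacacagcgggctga
Mfrp, chr9:44101520-44101769, plus strand: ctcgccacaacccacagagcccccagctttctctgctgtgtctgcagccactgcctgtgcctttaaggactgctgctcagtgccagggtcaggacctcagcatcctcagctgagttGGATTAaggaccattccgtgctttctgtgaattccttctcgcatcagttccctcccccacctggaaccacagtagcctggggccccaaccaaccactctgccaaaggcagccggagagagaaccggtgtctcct
The motif occurred on either strand in 6.252% of the 32851 windows of the same length, and in 1 of the 12 windows that 6 members had. A match is a run of letters and not a shown binding site, and windows of Kcnj13, Slc4a5 and Aqp1 do not hold these 6 letters.

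Ttr, on chromosome 18 (GRCm38, 20665280 to 20674321, plus strand), ranged 211-fold between libraries of the same tissue. In the order of the replicates, its CPM were 16.5, 5.20, 17.2 and 23.2 for WT-8M, 1.49, 37.7, 2.33 and 314 for 3xTg-8M, 9.73, 7.18, 3.42 and 8.09 for WT-D, and 74.7, 4.82, 82.3 and 21.3 for 3xTg-D. In the inhibitor groups Ttr had 8.62, 305 and 3.48 CPM in WT-S and 8.45, 209.95, 1.75 and 2.84 CPM in 3xTg-S. The plot of Ttr by library shows 3 libraries far above the rest, 3xTg-8M replicate 4 (4826 counts), WT-S replicate 2 (4234 counts) and 3xTg-S replicate 2 (3164 counts), and these belong to 3 different groups. The median library had 8.62 CPM. Within 3xTg-8M alone, the levels spanned 31 to 4826 counts, and no group of 10 months lay wholly above another. The mean ± SD was 15.5 ± 7.52 CPM for WT-8M (n = 4), 89.0 ± 151 CPM for 3xTg-8M (n = 4), 7.11 ± 2.67 CPM in WT-D (n = 4), 45.8 ± 38.5 CPM in 3xTg-D (n = 4), 106 ± 173 CPM in WT-S (n = 3) and 55.7 ± 103 CPM in 3xTg-S (n = 4). In 3xTg-8M, WT-S and 3xTg-S the SD was above the mean. Because whole tissue was measured, more choroid plexus cells and more Ttr RNA per cell cannot be told apart.

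**Figure D1:**
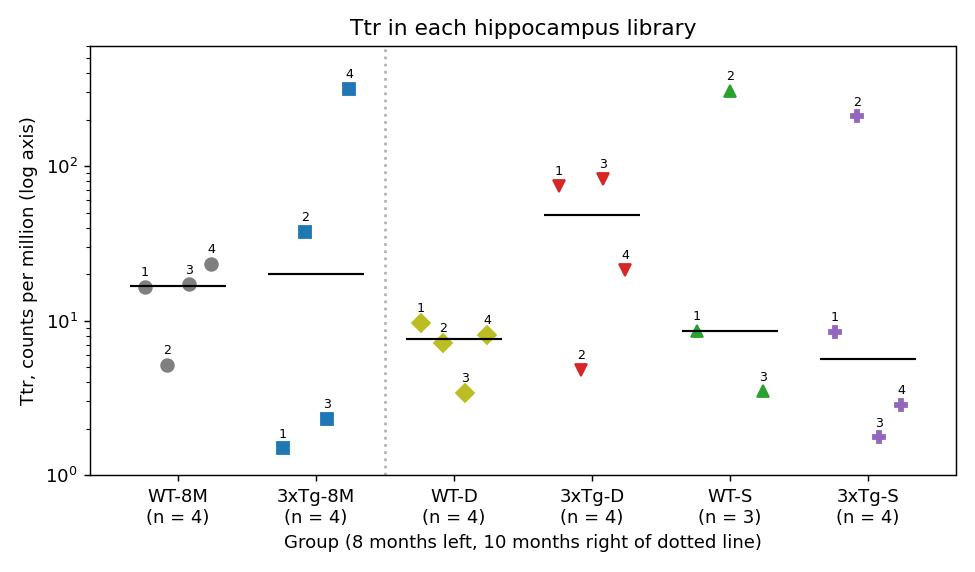
Ttr in CPM (log axis) in each of the 23 libraries, by group, with the replicate number above each point and a bar at the group median; the dotted line parts the ages. The libraries 3xTg-8M replicate 4, WT-S replicate 2 and 3xTg-S replicate 2 sit at 314, 305 and 209.95 CPM, above all others.

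The ion and water transporters of the epithelium were read at low depth and were highest in the same 3 libraries. Kcnj13, an inward rectifier potassium channel of the apical membrane (chromosome 1, 87386363 to 87394729, minus strand), had 25, 7, 9 and 17 counts in WT-8M and 1, 25, 1 and 58 counts in 3xTg-8M. At 10 months Kcnj13 had 7, 4, 1 and 7 counts in WT-D, 24, 10, 28 and 7 counts in 3xTg-D, 12, 69 and 1 counts in WT-S and 28, 37, 0 and 20 counts in 3xTg-S. In CPM, the 3xTg-D libraries (0.488 to 1.73 CPM) did not overlap with the WT-D libraries (0.0658 to 0.436 CPM), as was so for 7.28% of all genes tested in that comparison, and Kcnj13 itself was too low to be tested there. Of the 1270 exon bases of Kcnj13, 623 are shared with Gigyf2 on the opposite strand, and whether reads were counted by strand is not given in the sources used here. Where they were not, reads from these genes cannot be told apart.

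Clic6, a chloride intracellular channel protein of secretory epithelia (chromosome 16, 92485736 to 92541243, plus strand), was the member that followed Ttr most closely. It had 38, 11, 15 and 39 counts in WT-8M, 29, 37, 6 and 91 counts in 3xTg-8M, 16, 19, 6 and 13 counts in WT-D, 31, 10, 50 and 14 counts in 3xTg-D, 10, 103 and 6 counts in WT-S and 17, 53, 3 and 9 counts in 3xTg-S. Its levels ran from 0.219 CPM in 3xTg-S replicate 3 to 7.43 CPM in WT-S replicate 2, and all groups overlapped. Slc4a5, the sodium bicarbonate cotransporter of the apical membrane (chromosome 6, 83219828 to 83304945, plus strand), was at 12 counts or fewer outside the 3 libraries high in Ttr, where it had 28, 53 and 17 counts. In 11 of 23 libraries Slc4a5 was at the floor of 3 counts or below, where differences were not detectable at this depth, and in the remaining libraries outside those 3 it had between 4 and 12 counts. Aqp1, the water channel of the apical membrane (chromosome 6, 55336432 to 55348555, plus strand), had 18 counts in 3xTg-8M replicate 4, 26 counts in WT-S replicate 2 and 13 counts in 3xTg-S replicate 2. It was at the floor in 12 libraries and reached at most 13 counts elsewhere, in WT-8M replicate 1, the deepest library (36.7M gene counts).

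Among the genes for carriers and lipid enzymes, Folr1 and Enpp2 differed in how much of their RNA moved with Ttr. Folr1, the folate receptor by which the epithelium passes folate into the cerebrospinal fluid (chromosome 7, 101858331 to 101870788, minus strand), had 38 counts in 3xTg-8M replicate 4, 33 counts in WT-S replicate 2 and 24 counts in 3xTg-S replicate 2, and between 2 and 21 counts in the other libraries. Enpp2 encodes autotaxin, the secreted enzyme that makes lysophosphatidic acid (chromosome 15, 54838901 to 54952892, minus strand). Enpp2 stood at 162, 184, 219 and 224 CPM for WT-8M, 199, 208, 170.2 and 324 CPM for 3xTg-8M, and 192, 200.3, 175 and 183 CPM in WT-D. The 3xTg-D libraries had 256, 194, 173 and 239 CPM of Enpp2, the WT-S libraries 181, 402 and 199.9 CPM and the 3xTg-S libraries 236, 326, 211 and 212 CPM. The highest 3 values of Enpp2 belong to the same 3 libraries as those of Ttr, but on a base of at least 162 CPM in all libraries. Its exons share 345 of 5779 bases with Gm26684 on the opposite strand. Per kilobase of exon the order of the group means in WT-D was Enpp2 (32.5 CPM per kilobase), Ttr (5.99) and Kl (3.09), and in WT-8M it was Enpp2 (34.2) and Ttr (13.1). In the other 4 groups the mean of Ttr stood above that of Enpp2 on this scale, with 75.0 against 39.0 CPM per kilobase in 3xTg-8M, 38.6 against 37.3 in 3xTg-D, 89.3 against 45.1 in WT-S and 47.0 against 42.6 in 3xTg-S. The means of Ttr in 3xTg-8M, WT-S and 3xTg-S each rest on 1 high library.

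Otx2, Kl and Igf2 are the members with roles in gene regulation and signalling. Otx2, the homeodomain factor that keeps the epithelium's identity (chromosome 14, 48657677 to 48673819, minus strand), had 4, 1, 16 and 16 counts in WT-8M, 17, 19, 2 and 22 counts in 3xTg-8M, 5, 6, 2 and 3 counts in WT-D, 11, 3, 13 and 8 counts in 3xTg-D, 6, 25 and 3 counts in WT-S and 11, 30, 4 and 3 counts in 3xTg-S. It was highest in 3xTg-S replicate 2 and WT-S replicate 2 and then in 3xTg-8M replicates 2 and 4. Kl encodes Klotho, a coreceptor for fibroblast growth factor 23 whose shed form is found in cerebrospinal fluid (chromosome 5, 150952607 to 150993817, plus strand). Its levels were even, from 22.1 CPM in WT-8M replicate 1 to 37.95 CPM in WT-S replicate 2, a 1.72-fold range, and 3xTg-8M replicate 4 and 3xTg-S replicate 2 ranked only 9 and 8 of 23. Igf2, an insulin-like growth factor made in the choroid plexus and the leptomeninges (chromosome 7, 142650766 to 142666816, minus strand), was highest in WT-S replicate 2 (2.53 CPM), 3xTg-8M replicate 2 (2.27 CPM) and 3xTg-S replicate 1 (1.67 CPM), and 3xTg-8M replicate 4 and 3xTg-S replicate 2 ranked 9 and 10. Of the 5723 exon bases of Igf2, 3596 are shared with Gm49394 on the same strand, and Otx2 shares 168 of 4221 with Gm49154, so these 2 members are uncertain where the counting could split reads.

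In all, 7 of the 10 members (Ttr, Folr1, Kcnj13, Clic6, Enpp2, Aqp1 and Slc4a5) had their 3 highest levels in 3xTg-8M replicate 4, WT-S replicate 2 and 3xTg-S replicate 2. The log2 CPM (prior count 2) of Ttr over the 23 libraries was correlated with that of Clic6 (Pearson's r = 0.938, Spearman's rho = 0.897), Slc4a5 (r = 0.885, rho = 0.738), Kcnj13 (r = 0.844, rho = 0.802), Otx2 (r = 0.784, rho = 0.729), Aqp1 (r = 0.770, rho = 0.558), Enpp2 (r = 0.722, rho = 0.490) and Folr1 (r = 0.703, rho = 0.510). Over these 9 relations, the Benjamini-Hochberg adjusted permutation p (two-sided, 100000 resamples) of r was 3e-05 for Clic6, Slc4a5 and Kcnj13, whose p before adjustment (1e-05) was the smallest that the permutation can give, and 0.000347 for Folr1. For rho it was 0.0207 for both Enpp2 and Folr1. Kl followed Ttr less (r = 0.480, rho = 0.497, adjusted permutation p of r = 0.0226), and Igf2 did not pass the test (r = 0.287, rho = 0.347, adjusted permutation p = 0.185). Without the 2 libraries farthest from the median of Ttr, r fell to 0.899 for Clic6, 0.824 for Slc4a5, 0.774 for Kcnj13, 0.707 for Otx2, 0.596 for Aqp1, 0.508 for Enpp2, 0.487 for Folr1, 0.317 for Kl and 0.0733 for Igf2. Depth had r = -0.10 and rho = 0.0543 with Ttr (log2 gene counts, permutation p = 0.666 and 0.807). The share of reads outside genes had r = 0.468 with Ttr but rho = 0.148 (permutation p = 0.0206 and 0.5), and r = 0.169 without the 2 libraries farthest from the median.

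The ages were also taken apart, since 3 of the 8 libraries of 8 months were deeper (29.2M to 36.7M gene counts) than all the rest (12.8M to 17.6M). Within the 15 libraries of 10 months, r with Ttr was 0.961 for Clic6, 0.911 for Otx2, 0.890 for Slc4a5, 0.811 for Folr1, 0.793 for Aqp1, 0.784 for Kcnj13, 0.705 for Enpp2, 0.660 for Kl and 0.135 for Igf2. There Enpp2 rested on the libraries high in Ttr, with rho = 0.371 and r = 0.201 without the 2 farthest libraries. Within the 8 libraries of 8 months, Kcnj13 (r = 0.959), Clic6 (r = 0.916) and Slc4a5 (r = 0.906) passed the exact permutation test after adjustment (adjusted p = 0.00134, 0.0026 and 0.0026). The other 6 members did not pass it at 8 months, and Folr1 had r = 0.516 with all 8 libraries and r = -0.13 without the 2 farthest. With the group means removed, r over the 23 libraries was 0.953 for Clic6, 0.906 for Slc4a5, 0.850 for Kcnj13, 0.583 for Kl and 0.341 for Igf2. Igf2 did not pass the test there (adjusted permutation p of r = 0.112). The others did (adjusted permutation p of r at most 0.00349), so their correlations were present between libraries of the same group.

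**Figure D2:**
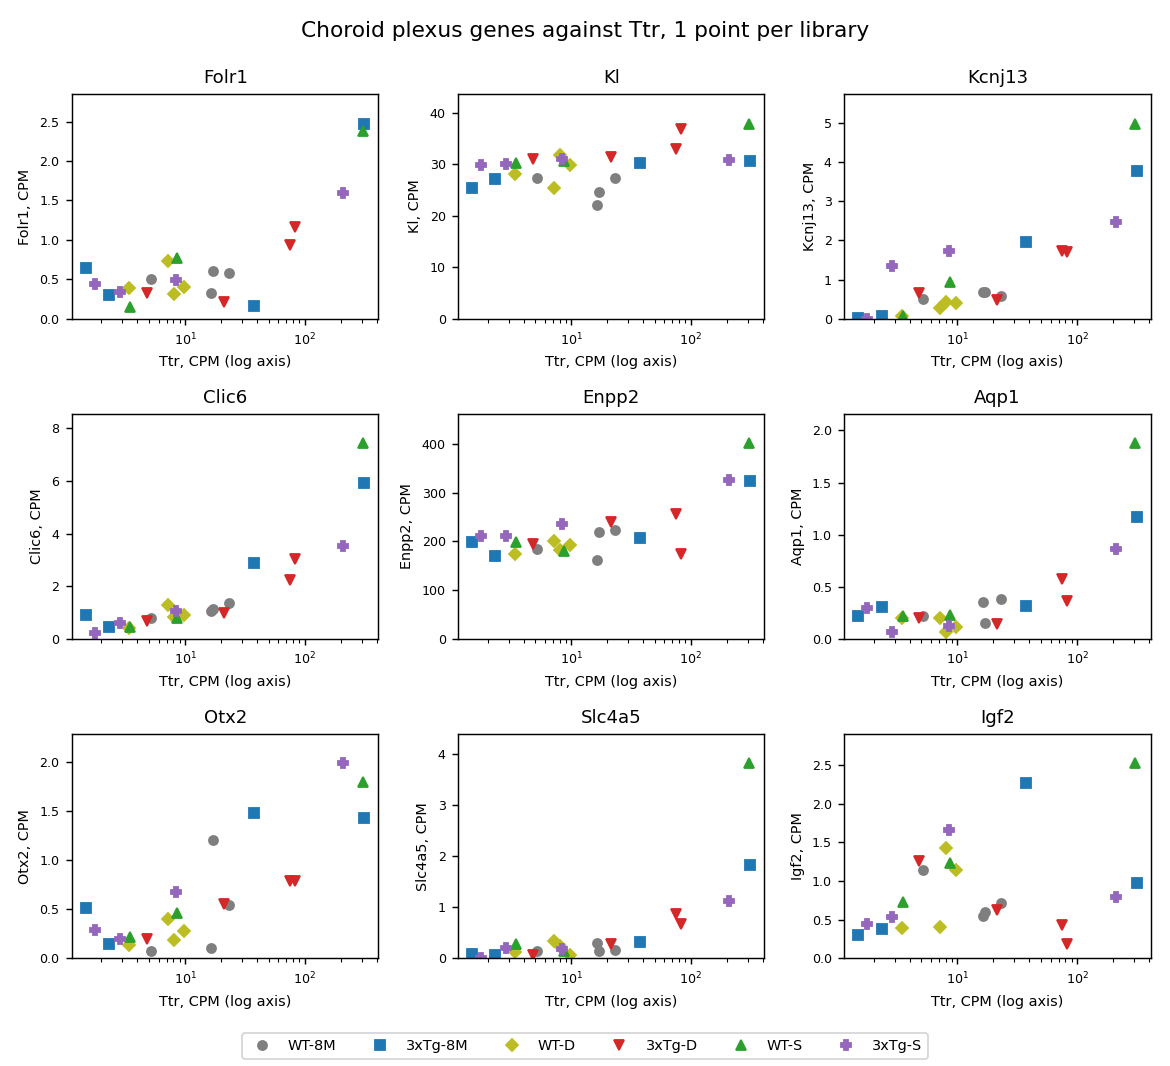
Each of the 9 other members (CPM, linear axis from 0) against Ttr (CPM, log axis), 1 point per library, coloured and shaped by group. Folr1, Kcnj13, Clic6, Aqp1 and Slc4a5 rise from near 0 with Ttr, Enpp2 rises from a base of at least 162 CPM, and Kl stays between 22.1 and 37.95 CPM.

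A straight line of each member's CPM on that of Ttr puts the part that moved with Ttr beside the part that did not. Per 100 CPM of Ttr, the fitted rise was 55.2 CPM for Enpp2, 1.92 CPM for Kl, 1.85 CPM for Clic6, 1.22 CPM for Kcnj13, 0.807 CPM for Slc4a5, 0.650 CPM for Folr1, 0.483 CPM for Otx2, 0.416 CPM for Aqp1 and 0.230 CPM for Igf2. The level fitted at no Ttr was 192 CPM for Enpp2 and 28.7 CPM for Kl, against 0.743 CPM for Clic6, 0.374 CPM for Folr1 and 0.0896 CPM for Slc4a5. The squared correlation of the line was 0.911 for Clic6, 0.907 for Folr1, 0.875 for Aqp1 and 0.789 for Enpp2, but 0.248 for Kl and 0.123 for Igf2. On this linear scale the 3 highest libraries weigh most, and the lines are descriptions.

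Kl, Enpp2 and Igf2 were also set against the summed level of 8 marker lists, which made 24 relations. Group means were not removed here, so differences between groups are part of these relations. Whether they hold between libraries of the same group was not tested. Enpp2 followed the oligodendrocyte list (Mbp, Mog, Mag, Mobp and Cnp; rho = 0.728, r = 0.542, adjusted permutation p of rho = 0.00264 and of r = 0.0368), and autotaxin is also made by oligodendrocytes. It followed ependymal markers (rho = 0.669, r = 0.536, adjusted permutation p of rho = 0.00732) and the 26 wider choroid plexus genes (rho = 0.542, r = 0.732, adjusted permutation p of rho = 0.0363) as well. In the sum of that wider list, Slc12a2, Car12 and Cab39l weigh most (means of 87.2, 41.3 and 39.4 CPM), and other brain cells express them too. Against the blood list (4 globin genes and Alas2) Enpp2 passed by r but not by rho (r = 0.537, rho = 0.505, adjusted permutation p = 0.0387 and 0.0514). Without the 2 libraries farthest from the median of each list, r of Enpp2 was 0.484, 0.566, 0.414 and, for blood, 0.398. Igf2, which did not follow Ttr, followed the meninges and fibroblast list (Slc6a13, Dcn, Col1a1 and 9 others; r = 0.606, rho = 0.646, adjusted permutation p of r = 0.0181), the wider choroid plexus list (r = 0.677, rho = 0.634, adjusted permutation p of r = 0.00348) and the endothelial list (r = 0.546, rho = 0.568, adjusted permutation p of r = 0.0368). Without the 2 farthest libraries these r of Igf2 were 0.593, 0.643 and 0.483. No relation of Kl passed the adjusted test, and its highest was with endothelium (r = 0.432, rho = 0.430, adjusted permutation p of r = 0.117).

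Genes outside the members were ranked by the r of their log2 CPM, group means removed, with the mean of the members. The 16555 genes that passed the filter include the members, which were left out of the ranking. The 10 most alike were F5, Kcne2, Tmem72, Abca4, Mfrp, Sulf1, Cldn2, Sostdc1, Gpx8 and Ecrg4, with r from 0.942 to 0.819, against a median of 0.03 over all genes ranked. Of these, 8 stood in the wider choroid plexus list, and the exceptions were Sulf1, a heparan sulfate endosulfatase, and Gpx8, an endoplasmic reticulum peroxidase. F5, coagulation factor V, went from 0.577 CPM to 10.03 CPM in WT-S replicate 2. Kcne2, a potassium channel subunit of this epithelium, was listed at 0 counts in 6 libraries and had 39 counts in WT-S replicate 2. Tmem72, a transmembrane protein, was at 0 in 3 libraries and had 65 counts in 3xTg-8M replicate 4. Cldn2, a pore-forming claudin of leaky epithelia such as the choroid plexus, went from 0.279 to 3.46 CPM. Of the genes ranked, 14 had r above 0.8, and 8 had r below -0.8.

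The wider list held 26 genes, of which 20 passed the filter and 16 had r above 0.5 with Ttr. Of the 26, 18 were highest in 3xTg-8M replicate 4, WT-S replicate 2 or 3xTg-S replicate 2. The shares of all genes with such an r, or highest in these libraries, were not counted. The 3 with the highest mean level were Slc12a2 (87.2 CPM, r with Ttr = 0.0225), Car12 (41.3 CPM, r = -0.18) and Cab39l (39.4 CPM, r = 0.508), genes that other brain cells express as well. The summed level of the list, in which these 3 genes weigh most, ran from 203 CPM in 3xTg-8M replicate 3 to 316 CPM in WT-S replicate 2. It was correlated with Ttr (r = 0.688, rho = 0.631, adjusted permutation p of r = 0.00168 over 8 lists). Group means were not removed in the relations of the lists to Ttr. Meningeal and fibroblast markers also moved with Ttr (r = 0.520, rho = 0.473, adjusted permutation p of r = 0.0464 and of rho = 0.0621), with 12 of 12 genes at a positive r and sums from 74.9 CPM in 3xTg-S replicate 3 to 254 CPM in 3xTg-S replicate 1. Thalamic markers had r = 0.471 and rho = 0.555 (adjusted permutation p = 0.0616 and 0.0263), with sums from 131 to 193 CPM. The remaining lists did not pass the test, with r = 0.338 for endothelium, 0.221 for ependyma, 0.143 for blood, 0.0745 for oligodendrocytes and -0.31 for hippocampal neurons (rho = 0.321, 0.206, 0.00593, -0.03 and -0.24). The part of meningeal or thalamic tissue in the levels of the members was not tested.

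**Figure D3:**
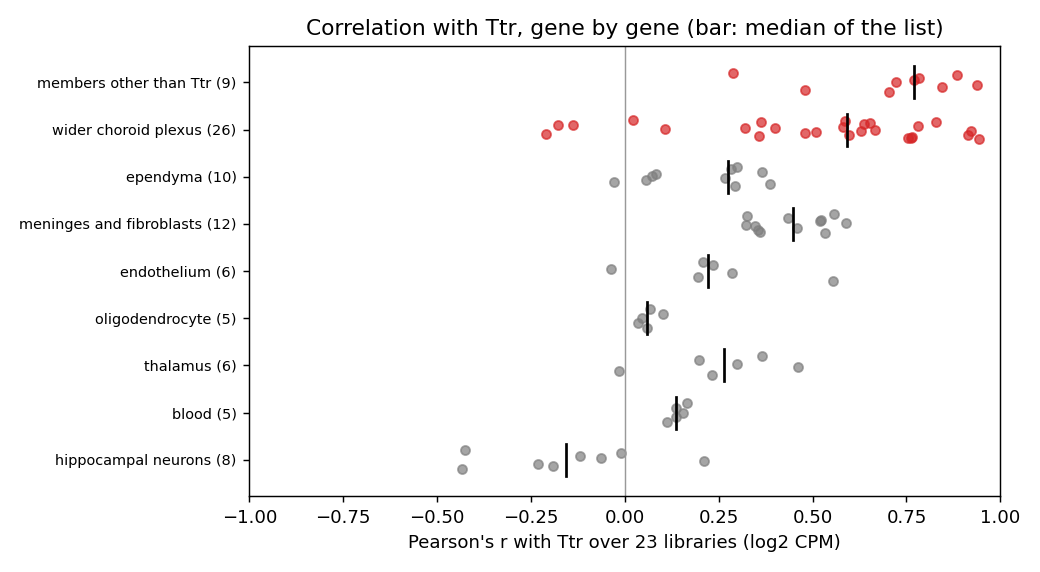
Pearson's r of each gene with Ttr (log2 CPM, 23 libraries), 1 point per gene, for the 9 other members and 8 marker lists, with the number of genes in brackets and a bar at the median of each list. The median r was 0.770 for the members, 0.592 for the wider choroid plexus list, 0.447 for meninges and fibroblasts and -0.16 for hippocampal neurons.

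The spread between libraries of a group, measured as the pooled within-group SD of log2 CPM, placed most members at the top of all genes. Ttr had an SD of 2.48 and ranked 3 of 16555 genes, after Olfr629 and Gm43333. Kcnj13 (SD 1.62) ranked 19, and SDs were 1.25 for Slc4a5, 1.22 for Clic6, 1.08 for Otx2, 1.00 for Folr1, 0.85 for Aqp1 and 0.84 for Igf2. The median over all genes was 0.15, and 8 of the 10 members lay above percentile 95. Enpp2 (SD 0.34) was at percentile 81.0 and Kl (SD 0.13) at 39.9. Low counts widen this SD, and among genes within 0.5 log2 units of the same mean level the percentiles were 99.9 for Ttr, 99.8 for Kcnj13, 99.4 for Enpp2, 99.0 for Clic6, 98.5 for Otx2, 98.2 for Folr1, 96.8 for Igf2, 96.5 for Slc4a5, 86.8 for Aqp1 and 65.5 for Kl.

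**Figure D4:**
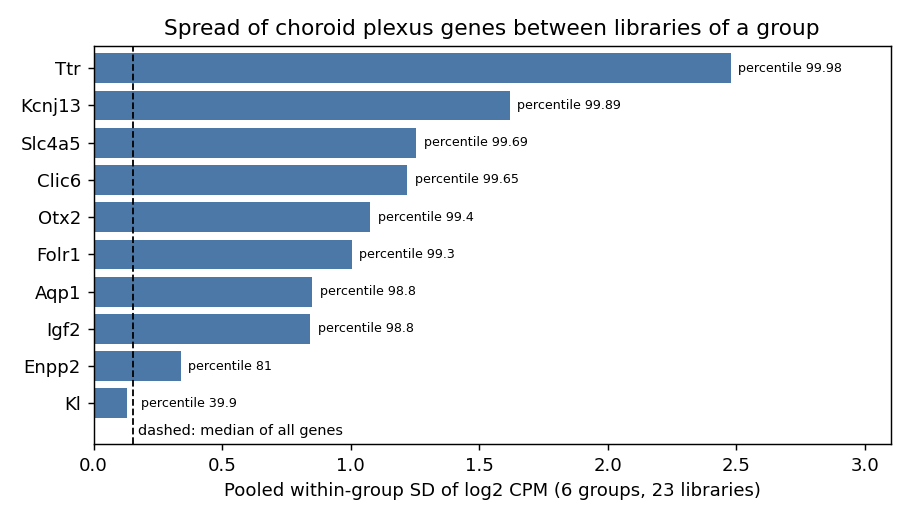
Pooled within-group SD of log2 CPM of the 10 members over 6 groups and 23 libraries, with the percentile of each among 16555 genes beside its bar; the dashed line is the median of all genes, 0.15. Ttr has the longest bar (2.48), and Kl (0.13) lies below the median.

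Against this spread, no member was called in any of 8 comparisons by edgeR's quasi-likelihood test at a Benjamini-Hochberg adjusted p under 0.05. Fold changes and tests are given for Ttr, Clic6, Enpp2 and Kl, the 4 members that passed the filter in every comparison. The others passed in some comparisons only, in part through the libraries where they were high. Without the filter on low counts, edgeR called Ttr in all comparisons but 3xTg-S against 3xTg-D and the inhibitor over both strains (adjusted p from 1.09e-08 to 0.014), and the cause was not tested. The shares of all genes given below are from the filtered edgeR fit and were not taken in that setting. Comparisons that share a group share its libraries, WT-D being in 3 of the 6 pairs.

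At 8 months, in mice that had no pump, WT-8M had a mean of 15.5 CPM of Ttr and 3xTg-8M one of 89.0 CPM, and this difference lay in 3xTg-8M replicate 4. The log2 fold change of Ttr was 2.498 ± 1.19 (SE, edgeR adjusted p = 0.307), and without that library it was -0.32. Clic6 had 1.17 ± 0.61 (edgeR adjusted p = 0.347) and 0.26 without it, Enpp2 had 0.20 ± 0.18 (edgeR adjusted p = 0.602) and -0.05 without it, and Kl had 0.16 ± 0.09 (edgeR adjusted p = 0.400). Of the 6 members tested, 0 were called and 0 had an unadjusted p under 0.05, against 2.58% of 15483 genes called and 17.4% at an unadjusted p under 0.05, and the DESeq2 likelihood ratio test called 0 as well. An exact permutation test of the log2 CPM of Ttr, whose smallest possible p is 0.0286 in each pair of groups, gave a difference of 0.10 (two-sided p = 0.971).

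With vehicle at 10 months, the mean of Ttr was 45.8 CPM in 3xTg-D and 7.11 CPM in WT-D. Its log2 fold change was 2.66 ± 0.66 (edgeR adjusted p = 0.0806), with 3 of the 4 3xTg-D libraries above all WT-D libraries and 3xTg-D replicate 2 within them. It lay between 2.23 and 3.04 whichever library was left out, and without 3xTg-D replicate 2 it was called (3.04, edgeR adjusted p = 0.00576). Clic6 (1.02 ± 0.46, edgeR adjusted p = 0.374), Enpp2 (0.19 ± 0.11, edgeR adjusted p = 0.515) and Kl (0.18 ± 0.08, edgeR adjusted p = 0.365) were not called. Among the 4 members tested 0 were called by edgeR or DESeq2, against 1.39% of 15528 genes, and 3 had an unadjusted p under 0.05, against 13.1%. The exact permutation test of Ttr gave a difference of 2.06 in mean log2 CPM (two-sided p = 0.114, adjusted p = 0.684 over 6 pairs).

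Inhibitor against vehicle, the comparison made to see what SCDi changes, gave no called member in either strain. In 3xTg mice the log2 fold change of Ttr in 3xTg-S against 3xTg-D was 0.27 ± 1.10 (edgeR adjusted p = 0.941), and without 3xTg-S replicate 2 it was -3.35. The median library went the other way from the mean, with 5.65 CPM in 3xTg-S and 48.0 CPM in 3xTg-D. Kl was lower in all 4 3xTg-S libraries (29.9 to 31.0 CPM) than in all 4 3xTg-D libraries (31.1 to 36.9 CPM), by a log2 change of -0.13 ± 0.06 (edgeR adjusted p = 0.480), and 6.89% of all tested genes had groups that did not overlap. Clic6 had -0.36 ± 0.62 (edgeR adjusted p = 0.843) and Enpp2 0.18 ± 0.15 (edgeR adjusted p = 0.640). Of 6 members tested, 0 were called by edgeR or DESeq2 and 0 had an unadjusted p under 0.05, where 0% of 15530 genes were called by edgeR and 11.2% had an unadjusted p under 0.05.

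In WT mice the log2 fold change of Ttr in WT-S against WT-D was 3.88 ± 1.17 (edgeR adjusted p = 0.981), and without WT-S replicate 2 it was -0.26. The same library carried Clic6 (1.75 ± 0.81, edgeR adjusted p = 0.981), which was -0.51 without it, and Enpp2 (0.46 ± 0.22, edgeR adjusted p = 0.981), which was -8.92e-05 without it. Kl had 0.18 ± 0.10 (edgeR adjusted p = 0.981) and 0.06 without that library. Of 6 members tested, 0 were called by edgeR or DESeq2 and 1, Ttr, had an unadjusted p under 0.05, against 0% of 15724 genes called by edgeR and 3.42% at an unadjusted p under 0.05. Aqp1 was too low to be tested, and its WT-S libraries (0.218 to 1.88 CPM) lay above its WT-D libraries (0.0623 to 0.201 CPM) at 3 counts or fewer in 6 of the 7, where 4.94% of all genes tested had groups that did not overlap.

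Over both strains, SCDi against vehicle gave Ttr a log2 change of 1.78 ± 1.02 (edgeR adjusted p = 0.455), which became -2.21 (edgeR adjusted p = 0.405) without WT-S replicate 2 and 3xTg-S replicate 2, a choice made after their Ttr counts were seen. Clic6 went from 0.62 ± 0.59 to -1.09 and Enpp2 had 0.31 ± 0.14 (edgeR adjusted p = 0.360). Of 9 members tested 0 were called by edgeR or DESeq2, as were 0% of 16262 genes by edgeR, and 1 member had an unadjusted p under 0.05, against 13.6% of genes. The interaction of strain and inhibitor, which asks whether SCDi acted differently in 3xTg and WT mice, was -3.61 ± 1.87 for Ttr (edgeR adjusted p = 0.999988) and 0.53 without WT-S replicate 2. It called 0 of 9 members by either tool and 0% of 16262 genes by edgeR, with 2 members (Kl, -0.30 ± 0.12, and Slc4a5) and 2.32% of genes at an unadjusted p under 0.05. Slc4a5 passed the filter in no pair of groups, and its highest level was in WT-S replicate 2 (53 counts). Its p is therefore not read as a result.

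With inhibitor in both arms, 3xTg-S against WT-S, the log2 fold change of Ttr was -0.94 ± 1.39 (edgeR adjusted p = 0.878). Each arm had 1 high library, and the value moved from -4.56 without 3xTg-S replicate 2 to 3.20 without WT-S replicate 2. Clic6 had -1.09 ± 0.86 (edgeR adjusted p = 0.734), Enpp2 -0.09 ± 0.24 (edgeR adjusted p = 0.941) and Kl -0.11 ± 0.09 (edgeR adjusted p = 0.720). Of 7 members tested, 0 were called by edgeR or DESeq2 and 0 had an unadjusted p under 0.05, against 1.32% of 15664 genes called and 10.6% at an unadjusted p under 0.05.

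The treated 3xTg mice were finally set against the WT vehicle mice, the comparison by which the study asked what SCDi leaves changed. Enpp2 was higher in all 4 3xTg-S libraries (211 to 326 CPM) than in all 4 WT-D libraries (175 to 200.3 CPM), with a log2 fold change of 0.37 ± 0.11 (edgeR adjusted p = 0.117), and 10.1% of all tested genes had groups that did not overlap. It stayed between 0.22 and 0.43 whichever library was left out, and it was called by the DESeq2 likelihood ratio test (adjusted p = 0.0423). How many of all genes DESeq2 called there is not given here. The oligodendrocyte markers, which Enpp2 followed over the libraries with group differences left in, summed to 3956 to 4533 CPM in 3xTg-S and 2689.7 to 3687 CPM in WT-D. Blood markers summed to 30.4 to 213 CPM in 3xTg-S, with the highest sum in replicate 2, and to 21.2 to 32.6 CPM in WT-D. Ependymal markers, which Enpp2 also followed, summed to 22.4 to 38.1 CPM in 3xTg-S and 20.5 to 32.3 CPM in WT-D. Of these 10 genes 10 were higher in 3xTg-S, 4 had an unadjusted p under 0.05 and 0 were called by edgeR. The wider choroid plexus list summed to 217 to 270 CPM in 3xTg-S and 210 to 236 CPM in WT-D. The part of any of these lists in the difference was not tested. Ttr had 2.93 ± 1.14 (edgeR adjusted p = 0.217) and -0.69 without 3xTg-S replicate 2, Clic6 0.66 ± 0.61 (edgeR adjusted p = 0.625) and Kl 0.06 ± 0.07 (edgeR adjusted p = 0.714). By edgeR 0 of 5 members tested were called, against 2.29% of 15567 genes, and 2 (Ttr and Enpp2) had an unadjusted p under 0.05, against 16.9%.

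**Figure D5:**
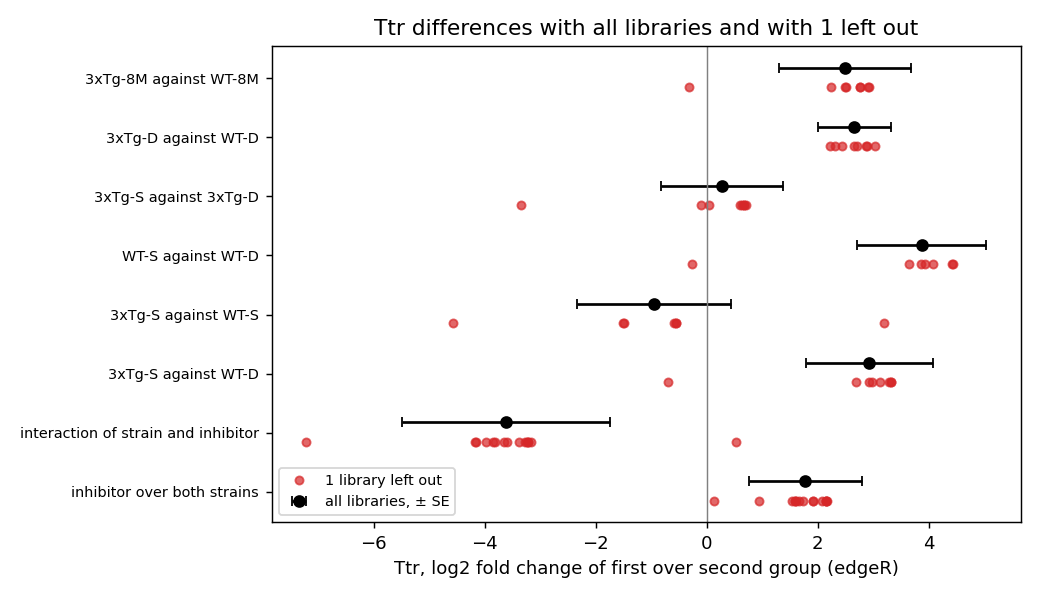
Log2 fold change of Ttr in 8 comparisons, with all libraries (black, ± SE) and with each library left out in turn (red, 1 point per library left out). The sign turned with 1 library left out in 6 comparisons (in 3xTg-D against WT-D and the inhibitor over both strains it did not).

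Of the wider choroid plexus list, Ecrg4 was the gene called, in 3xTg-S against WT-D. It passed the filter there through the 3xTg-S libraries, where it was high, so the call is given as a value and not read as a result. Ecrg4, which encodes a secreted peptide precursor made by the choroid plexus epithelium, had 32, 60, 18 and 23 counts in 3xTg-S and 8, 8, 7 and 16 counts in WT-D, and every 3xTg-S library (1.32 to 3.98 CPM) lay above every WT-D library (0.455 to 0.996 CPM). The log2 fold change was 1.83 ± 0.39 (edgeR adjusted p = 0.0292), and 1.39 (edgeR adjusted p = 0.0517) without 3xTg-S replicate 2. It was also no longer called without 4 other libraries, each left out alone (WT-D replicates 1, 2 and 3 and 3xTg-S replicate 1, edgeR adjusted p from 0.0649 to 0.0799), or with all 15 libraries of 10 months in the fit (edgeR adjusted p = 0.092). In that comparison 1 of 16 tested genes of the list was called, against 2.29% of all genes, and in the other 7 comparisons edgeR called 0 of the 16 to 19 tested, with 0 to 6 genes whose unadjusted p was under 0.05. The 6 were of 17 tested in WT-S against WT-D, where 3.42% of all genes had such a p, and they became 1 of 17 without WT-S replicate 2, 3 without WT-D replicate 1 or 3, and 11 without WT-S replicate 3. Among the 6, Ecrg4 passed the filter there through the WT-S libraries, where it was high. Cldn2, also of the 6, passed it there but not in 3xTg-D or 3xTg-S against WT-D. The count is therefore not read as an excess over all genes. For the inhibitor over both strains 5 of 19 had such a p, against 13.6% of all genes. In 3xTg-D against WT-D it was 3 of 16, against 13.1%. In 3xTg-S against 3xTg-D it was 2 of 18, against 11.2%, and in 3xTg-S against WT-S 2 of 17, against 10.6%. At 8 months it was 0 of 17, against 17.4%, and for the interaction 0 of 19, against 2.32%. In 3xTg-S against WT-D it was 4 of 16, against 16.9%.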

How the data were processed

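Hippocampal RNA was sequenced in 23 libraries. Per the study's methods and the submitters' processing notes, the authors prepared polyadenylated RNA libraries, read them from 1 end, used Trimmomatic 0.35 for trimming and STAR 2.5.1b for alignment to GRCm38. The deposited values are raw counts per gene, which the authors neither normalised nor pooled. The strand setting and any collapsing of molecular identifiers are not given in the sources used here. The 4 rows of the table that name no gene (24.7% to 30.9% of reads) were left out. All sample columns were used.

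The 10 members were taken by symbol, and they, the marker lists and the tests were chosen with earlier results of these data known. For each pair, the fit held the libraries of both groups alone, and the interaction and the inhibitor effect over both strains on the 15 libraries of 10 months, with edgeR 4.0.16 in R 4.3.3 (filterByExpr, TMM, quasi-likelihood test, Benjamini-Hochberg adjusted p under 0.05). The SE is the log2 fold change divided by the square root of F. CPM are counts scaled to 1M gene counts per library, and log2 CPM used a prior count of 2. Lists were summed as CPM and put on the log2 scale after adding 0.1. Correlations were tested by permutation (100000 resamples, or all orders for 8 libraries). At 3 counts or fewer a library was taken to be at the floor. Since PCR reads are not single molecules, this floor covers counting error only. Exon lengths and overlaps came from Gencode M21 and upstream windows from RefSeq (GRCm38.p6), which had windows for 6 of the 10 members. No window was at hand for Ttr, Folr1, Clic6 and Enpp2. The scripts were tested on simulated counts. Part of the 3xTg genotype and 1 gene of the oligodendrocyte list are not reported here, and that gene was left out of the list's sums.

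Text names all 10 members, the genes of the wider list that were called, its 3 highest in mean level, and the 10 genes most like the members. Alternatives were DESeq2 size factors, the likelihood ratio test of DESeq2 1.42.0, all genes without a filter, robust dispersion, all 15 libraries of 10 months in the fit, a block for runs of 4 animal numbers, a prior count of 0.5 and each library left out. An exact permutation test of Ttr and the removal of both inhibitor libraries high in Ttr were added after the data were seen.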

Additional observations from a re-analysis of the deposited data

Results flagged for a closer look

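Within each group of 4 libraries, the highest and the lowest level of each member were set against the other 3 by Dixon's test, which chance alone would pass in about 1 of 20 groups. Of 50 sets of a gene and a group, 5 passed, all with a library that was too high. Ttr passed in 3xTg-8M, where replicate 4 had 314 CPM and the next library 37.7 CPM, and in 3xTg-S, where replicate 2 had 209.95 CPM and the next 8.45 CPM. Folr1 passed in 3xTg-S with 1.59 CPM in replicate 2 beside 0.494 CPM in the next. In 3xTg-8M replicate 4, Aqp1 had 1.17 CPM and Slc4a5 1.82 CPM, with 0.312 CPM in the next library for both. WT-S, with 3 libraries, could not be examined in this way, and its replicate 2 had 305 CPM of Ttr beside 8.62 and 3.48 CPM. The sets are not independent, since members of a library share its RNA.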

How the results depend on the processing

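No member was called in the 8 comparisons, and without the filter on low counts edgeR called 1 member (Ttr) in 3xTg-8M against WT-8M, 2 in 3xTg-D against WT-D, 1 in WT-S against WT-D, 3 in 3xTg-S against WT-S, 4 in 3xTg-S against WT-D and 1 in the interaction. In 3xTg-S against WT-D the DESeq2 likelihood ratio test called 1, Enpp2, and so did edgeR with the replicate block by runs of 4 animal numbers (adjusted p = 0.0423). How many of all genes these settings called is not given here, so these counts of members are not set against a share. Runs of numbers were not shown to pair libraries: of 21 pairs from different groups with the same run, 3 had a correlation of deviations over 0.1 (median 0.00875), and 4 of 15 libraries were most like their own run. With a library left out, the count ranged from 0 to 1 in 3xTg-D against WT-D (Ttr, without 3xTg-D replicate 2) and from 0 to 1 in 3xTg-S against WT-D (Kcnj13, without 3xTg-S replicate 3). Kcnj13 did not pass the filter in that pair with all libraries, and 3xTg-S replicate 3 was its library with 0 counts. It had 1 to 7 counts in WT-D and entered through the remaining 3xTg-S libraries, where it was high. Its call is therefore not read as a result. Within 8 months, 3 of 9 members passed the test against Ttr, and 8 did over all libraries.

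No fold change of a member was called with all libraries, and signs turned as follows. With 1 library left out, Ttr ranged from -0.32 to 2.92 in 3xTg-8M against WT-8M, from -3.35 to 0.72 in 3xTg-S against 3xTg-D, from -0.26 to 4.45 in WT-S against WT-D, from -4.56 to 3.20 in 3xTg-S against WT-S, from -0.69 to 3.32 in 3xTg-S against WT-D and from -7.23 to 0.53 in the interaction. Clic6 ranged from -1.43 to 0.0783, -0.51 to 2.27, -2.16 to 1.17, -0.40 to 0.98 and -3.18 to 0.15 in the last 5 of these, and from -0.40 to 0.97 for the inhibitor over both strains. Enpp2 ranged from -0.0482 to 0.31 in 3xTg-8M against WT-8M, from -8.92e-05 to 0.66 in WT-S against WT-D, from -0.29 to 0.37 in 3xTg-S against WT-S and from -0.48 to 0.18 in the interaction, and Kl from -0.18 to 0.0017 in 3xTg-S against WT-S and from -0.0526 to 0.04997 for the inhibitor over both strains. Ttr in 3xTg-S against 3xTg-D was -1.76 with the replicate block and -1.52 as the difference in mean log2 CPM of the exact permutation test, and Enpp2 in 3xTg-S against WT-S was 0.0051 with the block. Without both inhibitor libraries high in Ttr, 3xTg-S against WT-S gave 0.0012 for Kl, 0.10 for Clic6 and 0.21 for Enpp2, the interaction gave 0.0255 for Enpp2, and the inhibitor over both strains gave -2.21 for Ttr, -0.0450 for Kl and -1.09 for Clic6. The cause was not tested beyond the libraries named. Depth limits Slc4a5 and Aqp1 most, at 3 counts or fewer in 11 and 12 of 23 libraries, and groups of 3 or 4 libraries leave wide errors where 1 library stands far above the rest.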
